A study of Mus musculus with 21 samples.

Results

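The 10 genes described here encode secreted antagonists of Wnt and BMP signalling, chosen by symbol from the deposited gene tables: Sost, Sostdc1, Dkk1, Dkk2, Dkk3, Sfrp1, Frzb, Wif1, Nog and Grem1. Of these, 9 were listed in all 4 tables, among 19399 genes that the tables share. Dkk1 was listed in none, so that no level of it was analysed. Wnt ligands signal through Frizzled receptors with the co-receptors LRP5 and LRP6 and stabilize beta-catenin, while BMP ligands signal through receptor kinases and Smad proteins. Sclerostin (Sost), its relative Sostdc1, Dkk1 and Dkk2 bind the co-receptors, whereas Sfrp1, Frzb and Wif1 bind Wnt ligands themselves and noggin (Nog) and gremlin (Grem1) bind BMP ligands. Sost is best known from osteocytes in bone. These pathways shape cortical patterning, synapse formation and glial fate.

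Cultures of primary cortical neurons came from newborn (P0) mice, either wildtype (WT) or transgenic for hTau P301S (Tau), a mutant human tau cDNA under the prion promoter. The culture protocol describes seeding with 3 µg/mL of pre-formed fibrils on day 7 in vitro, followed by 18 days in culture, for the transgenic neurons, whereas another passage of the study can be read as covering WT neurons too. Whether the WT cultures were seeded is therefore unsure, and if they were not, the transgene and the seeding cannot be told apart in any Tau against WT difference. Cultures of both genotypes received AraC against glia, and then either AdipoRon, an agonist of the adiponectin receptors, or its vehicle DMSO for 24 h. The 21 cultures comprised 10 Tau cultures, 5 per treatment, and 11 WT cultures, 5 given DMSO and 6 given AdipoRon, and their polyadenylated RNA was sequenced. AdipoRon was given at 10 µM according to the sample tags. The protocol text gives the same figure in mM. According to the study's reporting summary, the same animal supplied samples to each treatment, a pairing that the deposited means do not carry. The mouse strain is not given in the sources used here.

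Each table gives 1 mean level per gene over the cultures of 2 groups, as log2 CPM (reads scaled to a common library total), and no value per culture was used. The tables therefore form 4 pools: DMSO (10 cultures of both genotypes), AdipoRon (11 cultures of both genotypes), Tau (10 cultures of both treatments) and WT (11 cultures of both treatments). The first pair shares no culture, and neither does the second, but each culture is counted in a treatment pool and again in a genotype pool. No replicate spread, standard error or p-value can be given for a difference between pools, and the deposited means do not carry the depth of each culture. The members were chosen with their AdipoRon responses known, so that all differences below are descriptions.

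The clearest differences were between treatments. Sost, Grem1 and Wif1 had lower mean levels in the AdipoRon pool than in the DMSO pool, by 10.6-fold, 4.39-fold and 4.23-fold. Frzb (1.69-fold lower) and Nog (1.51-fold lower) lay on the same side at less than 2-fold, while Dkk3, Sfrp1, Sostdc1 and Dkk2 differed by 0.31 or less on the log2 scale. Past 2-fold lower were 3 of the 9 members listed, against 1.74% of the 19399 genes, and past 2-fold higher were 0 of the members, against 0.68% of genes. In the AdipoRon pool, Sost (-1.86 log2 CPM) and Wif1 (-2.10) lay near the lowest level of any gene there (-2.85), so that the size of their differences is uncertain. On a scale of log2(CPM + 1), which compresses scarce genes, the differences were -1.62 for Sost, -1.55 for Grem1 and -0.69 for Wif1. On that scale 2 members and no longer Wif1 were past 2-fold. Since the members' choice used these responses, nothing is read from that contrast of shares.

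The windows before the transcription start are shown for the 3 genes that lay past 2-fold. They were picked by that difference, so that nothing is read from what they share. The windows are the 250 bases before the RefSeq start in GRCm38.p6 (mm10), read 5′ to 3′ on the strand of the gene. Capitals mark the short cyclic AMP response element (CRE) letters TGACG and the CCAAT box, each on either strand.
Sost, chr11:101967016-101967265, minus strand: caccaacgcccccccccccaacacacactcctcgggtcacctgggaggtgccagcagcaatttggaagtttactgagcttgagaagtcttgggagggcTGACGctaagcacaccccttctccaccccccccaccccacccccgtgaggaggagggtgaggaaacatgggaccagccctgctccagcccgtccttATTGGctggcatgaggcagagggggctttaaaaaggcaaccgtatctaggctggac
Wif1, chr10:121033754-121034003, plus strand: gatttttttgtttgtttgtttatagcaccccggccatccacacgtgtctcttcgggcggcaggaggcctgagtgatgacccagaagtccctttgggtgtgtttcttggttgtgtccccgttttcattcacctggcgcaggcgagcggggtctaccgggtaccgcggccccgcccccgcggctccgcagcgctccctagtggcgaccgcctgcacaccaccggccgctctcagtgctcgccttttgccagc
Grem1, chr2:113758649-113758898, minus strand: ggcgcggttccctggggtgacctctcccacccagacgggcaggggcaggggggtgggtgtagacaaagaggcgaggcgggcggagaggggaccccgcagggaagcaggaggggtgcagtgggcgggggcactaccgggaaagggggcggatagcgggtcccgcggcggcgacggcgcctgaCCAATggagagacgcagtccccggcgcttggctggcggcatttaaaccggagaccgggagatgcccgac

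Letters matched in these windows differed between the 3 genes. The short CRE letters began 152 bases before the start of Sost and were found in 17.7% of 32817 promoter windows of the same length. A CCAAT box began 56 bases before the start of Sost and 69 bases before that of Grem1, and 33.8% of windows held one. Wif1 had neither, and its only match was TATAAA on the opposite strand (TTTATA as printed), 232 bases before its start. TATAAA on either strand was found in 12.4% of windows. The full CRE (TGACGTCA, 1.55% of windows), the TCF/LEF letters CTTTGAT (3.21%) and the AP-1 letters TGANTCA (6.75%), searched on both strands, were found in none of the 3. The full CRE contains the short CRE letters. A match is a description of letters and not of a bound site. Of the 10 members, 6 were in the RefSeq promoter table, the others being Dkk1, Dkk2 and Frzb. Dkk2, with a treatment difference of 0.10, also had a CCAAT box, 65 bases before its start, and TATAAA at 32 bases. Frzb, 1.69-fold lower with AdipoRon, had none of the letters searched. Dkk1, which had no listed level, had TATAAA at 54 bases and no other match.

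Among antagonists of the LRP5 and LRP6 co-receptors, Sost showed the widest range. Its mean level was 2.91 CPM in the DMSO pool and 0.276 CPM in the AdipoRon pool, and 2.00 CPM in the Tau pool and 1.09 CPM in the WT pool. On the log2 scale the AdipoRon minus DMSO difference was -3.40 and 5 of the 19399 genes had a lower difference, which placed Sost at rank 6 from the lowest. Sostdc1, which can bind both LRP co-receptors and BMP ligands, had 1.52 CPM in the DMSO pool and 1.35 CPM in the AdipoRon pool, a log2 difference of -0.17. Dkk2, a Dickkopf family ligand of LRP6, stood at 1.17 CPM with DMSO and 1.26 CPM with AdipoRon (log2 difference 0.10). Both thus lay near the median difference of all genes, which was 0.03.

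Dkk3, a divergent Dickkopf family member that is abundant in cortical neurons, was the member with the highest level per transcript length. It had 185.2 CPM in the DMSO pool and 229.5 CPM in the AdipoRon pool, 23.9% higher, and 11.7% of all genes had a higher difference. Its levels in the Tau and WT pools were 213.2 and 202.6 CPM. Dkk3 was the member with the highest AdipoRon minus DMSO difference.

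**Figure D1:**
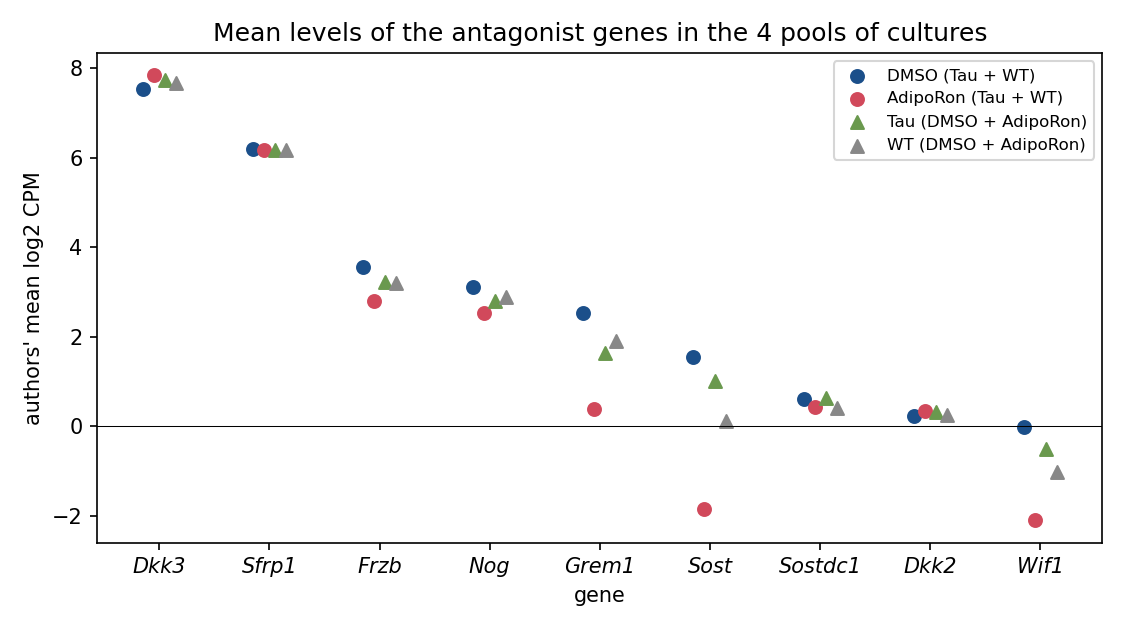
The authors' mean log2 CPM (vertical axis) of the 9 listed members (horizontal axis) in the 4 pools of cultures, 1 point per pool and no error bar because no value per culture was used. The DMSO and AdipoRon points of Sost lie far apart (difference -3.40), and those of Grem1 (difference -2.13) and Wif1 (-2.08) also lie far apart, while the DMSO and AdipoRon points of Sfrp1 nearly coincide (-0.04).

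Among antagonists that bind Wnt ligands, Wif1 and Frzb were lower in the AdipoRon pool and Sfrp1 was level. Wif1 (Wnt inhibitory factor 1) had 0.985 CPM with DMSO and 0.233 CPM with AdipoRon, a log2 difference of -2.08 at rank 52 from the lowest. It was scarce, and 9.53% of genes had a lower mean level over the 4 pools. Frzb, a secreted Frizzled-related protein also called sFRP3, had 11.7 CPM with DMSO and 6.92 CPM with AdipoRon (log2 difference -0.76), and 2.98% of all genes had a lower difference. Sfrp1, a protein of the same family that is made by radial glia and astrocytes, had 73.6 CPM with DMSO and 71.8 CPM with AdipoRon (log2 difference -0.04). Tau and WT levels of Sfrp1 were 71.7 and 72.6 CPM. Whether the difference of Frzb and that of Sfrp1 are unequal beyond the spread between cultures was not tested.

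Both antagonists of BMP ligands were lower in the AdipoRon pool, though by different amounts. Grem1 had 5.75 CPM with DMSO and 1.31 CPM with AdipoRon, a log2 difference of -2.13 at rank 49 from the lowest of all genes. Nog had 8.70 CPM with DMSO and 5.75 CPM with AdipoRon (log2 difference -0.60), and 4.72% of genes had a lower difference. Their levels by genotype were 3.11 CPM (Tau) and 3.76 CPM (WT) for Grem1, and 6.98 CPM (Tau) and 7.37 CPM (WT) for Nog.

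Levels of different genes were compared per kilobase of the canonical transcript. In the DMSO pool, Dkk3 had 30.9 CPM per kb, Sfrp1 15.9, Nog 5.13, Frzb 3.72, Sost 1.41, Grem1 1.38, Sostdc1 0.855, Wif1 0.429 and Dkk2 0.316 CPM per kb. With AdipoRon the first 4 places were the same, while Sost (0.133 CPM per kb) moved from place 5 to place 8 and Sostdc1 (0.759 CPM per kb) stood at place 5. Whether neighbours in these orders differ beyond their spread is unknown without values per culture.

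The genotype pools differed less. None of the 9 members was past 2-fold in either direction, against 0.515% of genes past 2-fold lower and 0.0979% past 2-fold higher in the Tau pool, by this 2-fold rule with no test. Sost was 1.84-fold higher in the Tau pool (log2 difference 0.88), and 0.232% of genes had a higher difference. AdipoRon cultures made up 6 of the 11 WT and 5 of the 10 Tau cultures, and this unequal share alone, with the same treatment means in both genotypes, would give a Tau minus WT difference of 0.11 for Sost, 0.08 for Wif1 and 0.08 for Grem1. Wif1 was 1.42-fold higher (0.51) and Grem1 stood at -0.27, with the other 6 members between -0.08 and 0.23. The 6 include Sostdc1 at 0.23 and Nog at -0.08.

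**Figure D2:**
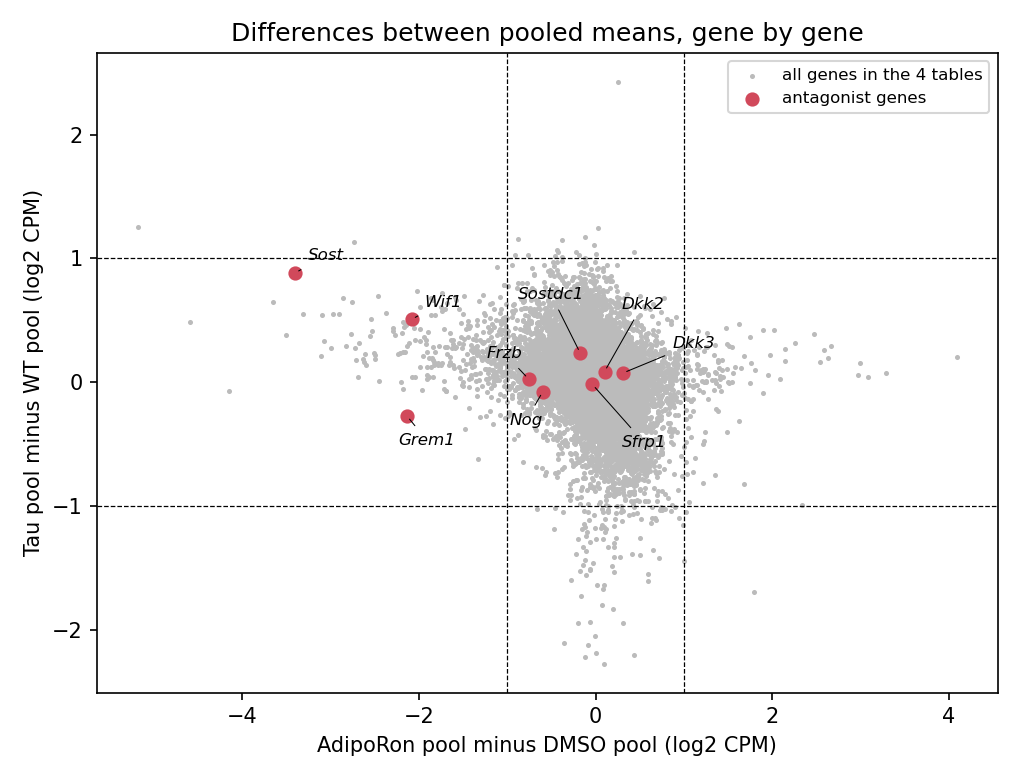
Difference between the AdipoRon and DMSO pools (horizontal axis, log2 CPM) against that between the Tau and WT pools (vertical axis, log2 CPM) for all 19399 shared genes (grey) and the 9 listed members (red), with dashed lines at 2-fold. Sost, Wif1 and Grem1 lie left of the line at -1 and no member lies beyond 1 on the vertical axis.

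The pooled means limit what each group can have had, since no group mean can be below 0 and the 4 pools are built from the same 4 groups. Summed over cultures, the DMSO and AdipoRon pools should equal the Tau and WT pools, and over all genes these sums differed with an SD of 0.00486 on the log2 scale (largest gap for a member 0.00942). For Sost, the mean of Tau cultures with DMSO lay between 3.42 and 4.03 CPM and that of WT cultures with DMSO between 1.80 and 2.40 CPM. With AdipoRon, Sost could have reached at most 0.606 CPM in Tau and 0.505 CPM in WT cultures. Sost was thus at least 5.64-fold lower with AdipoRon in Tau cultures and at least 3.56-fold lower in WT cultures, as a limit on group means without sampling error. With DMSO, Sost in Tau cultures lay between 1.42 and 2.24 times its mean in WT cultures.

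Wif1 and Grem1 were also lower with AdipoRon in each genotype under every combination of group means that the pools allow. For Wif1 the limit was at least 1.73-fold in Tau and 1.34-fold in WT cultures. Grem1 was at least 1.14-fold lower in Tau and at least 2.22-fold lower in WT cultures. These 3 members were all that met this condition among the 9, and 0.464% of the 19399 genes met it. The condition rests on the same pooled means, and the members' choice used these responses, so that nothing is read from that share. For Frzb, Nog and the other 4 members the pools allow either direction in each genotype. With DMSO, the ratio of Tau to WT means ran from 0.819 to 2.45 for Wif1 and from 0.401 to 1.16 for Grem1, so that its direction is not set. How the genotypes differed under AdipoRon is not limited by the pools for these 3 genes.

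**Figure D3:**
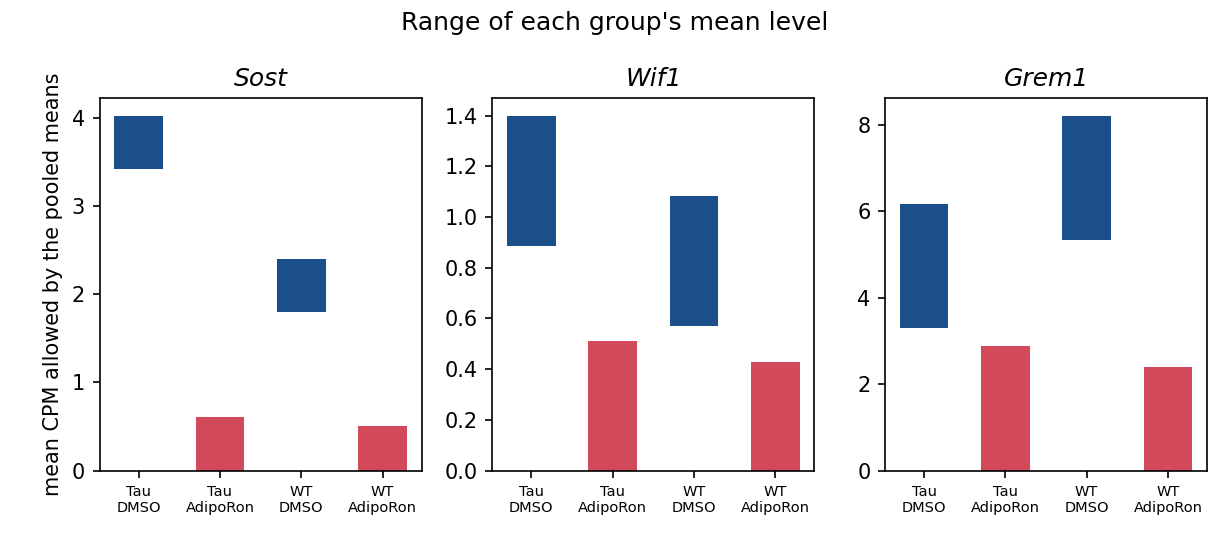
Range of mean CPM (vertical axes, from 0) that the 4 pooled means allow for each of the 4 groups (horizontal axes) for Sost, Wif1 and Grem1, with bars spanning the lowest to the highest allowed mean and DMSO in blue and AdipoRon in red. In each genotype the DMSO bar lies above the AdipoRon bar, for Sost in Tau cultures from 3.42 CPM against at most 0.606 CPM.

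The genes nearest to Sost across the 4 pools were Colq, which anchors acetylcholinesterase, Nptx2 (neuronal pentraxin 2), Asb11, the potassium channel subunit gene Kcnv1 and Gm39822. Nearness was the Euclidean distance of the 4 log2 levels after each gene's own mean was removed, and was 0.24 for Colq and 0.40 for Gm39822. Their AdipoRon minus DMSO differences were -3.31 (Colq), -3.65 (Nptx2), -3.10 (Asb11), -3.51 (Kcnv1) and -2.98 (Gm39822). Their Tau minus WT differences, which the distance also used, ran from 0.38 to 0.65. The 4 values share cultures, and the measure says nothing of shared control.

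Other genes of the Wnt and BMP pathways were past 2-fold between treatments at shares close to those of all genes. Of 116 pathway genes in 10 lists, 106 were listed in all tables, and 2 of these (1.89%) were past 2-fold lower and 1 (0.943%) past 2-fold higher, against 1.74% and 0.68% of all genes. Their median difference was -0.0045, against 0.03 for all genes. Dkkl1, a Dickkopf-like gene, had a difference of -1.18, with 0.424 CPM in the DMSO pool, and the ligand gene Bmp3 one of -1.08, with 8.88 CPM. Wnt10b was higher by 1.21, from 0.441 to 1.02 CPM.

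Antagonists outside the 10 members included genes on the higher side. Chrd (chordin), which binds BMP ligands, was higher by 0.90, at 11.4 CPM with DMSO and 21.4 CPM with AdipoRon. Apcdd1, a membrane-bound Wnt inhibitor, was higher by 0.76. In all, 5 of 10 listed BMP antagonists outside the members were above 0 and 5 below, with a median of 0.03, and 2 of 7 listed Wnt antagonists were above 0 and 5 below, with a median of -0.11.

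Receptors, transducers and target genes were within 2-fold between treatments. Below 0 were 8 of 18 Wnt receptor genes, 4 of 12 Wnt transducers, 7 of 9 Wnt target genes, 4 of 7 BMP receptor genes and 3 of 11 BMP transducers and targets, beside 44.5% of all genes. The 18 Wnt receptor genes ranged from -0.66 (Fzd10) to 0.27 (Fzd5), with 0 past 2-fold. The Wnt agonist Rspo1, an R-spondin, was at -0.95, while Rspo2 was higher by 0.76. Among 9 listed Wnt target genes, the differences ran from -0.19 (Nkd1) to 0.48 (Nkd2), and Axin2, a feedback gene widely read as a target of beta-catenin, was at -0.0016. Of 9 listed BMP ligand genes, 7 were below 0 with a median of -0.57, and Bmp2 had 5.76 CPM with DMSO and 3.70 CPM with AdipoRon. The gene at that median, Gdf6, was scarce (0.413 and 0.278 CPM), as were Bmp8a, Bmp8b and Gdf7. The more abundant ligand genes were mixed, with Bmp3 at -1.08, Bmp2 at -0.64, Bmp6 at -0.41, Bmp7 at -0.08 and Bmp4 at 0.08. The 7 BMP receptor genes lay between -0.19 and 0.20. Smad7, an inhibitory Smad, was at -0.82, whereas the BMP target genes Id1 and Id3 stood at 0.01 and 0.21.

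**Figure D4:**
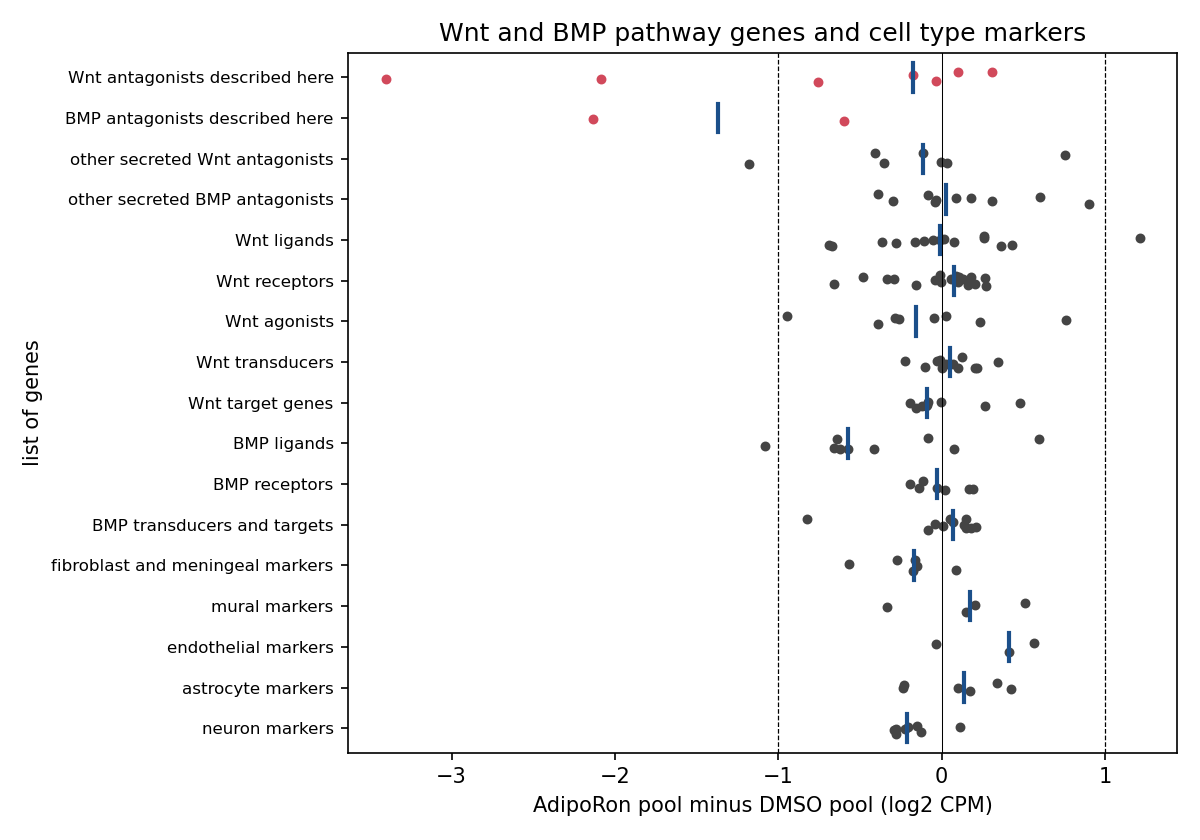
AdipoRon minus DMSO difference (horizontal axis, log2 CPM) of each listed gene in the lists of pathway and cell type marker genes (vertical axis), with blue bars at the list medians, members in red and dashed lines at 2-fold. The 3 members past 2-fold lie left of -2, and the genes of the other lists lie between -1.18 and 1.21.

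Cultures held markers of cells other than neurons. Summed over the markers, neuron genes had 4398 CPM with DMSO and 3835 CPM with AdipoRon. Astrocyte genes had 3898 and 4273 CPM, although the cultures had been treated against glia. Of the 6 astrocyte genes, 4 were above 0 and 2 below. Gfap had 1661 and 2104 CPM and Aldh1l1 275 and 370 CPM, whereas Slc1a3 had 1073 and 910 CPM. All 6 fibroblast and meningeal markers were listed, with a sum of 166.3 CPM with DMSO and 130.8 CPM with AdipoRon. The part of that sum due to Pdgfra, which oligodendrocyte progenitors also express, was 84.5 and 56.9 CPM, while Col1a1, Col1a2 and Col3a1 differed by -0.15 to -0.18. Mural markers (4 of 5 listed) summed to 86.3 CPM with DMSO and 81.8 CPM with AdipoRon, choroid plexus markers (3 of 4, Ttr not listed) to 3.33 and 3.11 CPM, and endothelial markers (3 of 5, Cldn5 and Cdh5 not listed) to 3.75 and 4.93 CPM. Microglia markers summed to 97.9 and 92.9 CPM, and oligodendrocyte lineage markers to 1407 and 1242 CPM. Neuron markers were below 0 in 7 of 8 genes, with a median difference of -0.21. None of the listed markers was past 2-fold between the treatment pools. The cell of origin of Sost, Wif1 and Grem1 was not tested, and fewer cells of a type and less RNA per cell cannot be told apart in such cultures.

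Between genotypes, 5 of 6 fibroblast and meningeal markers were above 0, the side of Sost and Wif1. The same held for 7 of 8 neuron, 4 of 6 astrocyte, 2 of 4 mural and 2 of 3 choroid plexus markers. Above 0 were 0 of 3 endothelial, 0 of 6 microglia and 0 of 6 oligodendrocyte lineage markers. Among all 19399 genes, 9645 were above 0. Dcn (decorin) was higher by 0.85 in the Tau pool, at 8.63 CPM against 4.78 CPM in the WT pool, and Lum (lumican) was higher by 0.57. The sum of the 6 fibroblast and meningeal markers was 139.0 CPM in the Tau pool and 154.7 CPM in the WT pool, with Pdgfra at -0.75. The part of any of these cell types in the higher Sost level of the Tau pool was not tested.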

How the data were processed

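Polyadenylated RNA from 21 cultures in 4 groups had been sequenced. The authors' methods name STAR with mm10 for alignment, RSEM for quantification and a generalized linear model in edgeR for the comparisons, whereas their results name GRCm39 and the tables are named after Rsubread. The deposited mean level of each gene is in log2 CPM over the cultures of a comparison, and normalization and gene filters are not given in the sources used here. The tables also hold the authors' fold changes, likelihood ratios, p-values, false discovery rates and calls, of which none was used. The sample descriptions assign tables to the WT groups differently from the tables' titles. The titles were followed, and the sums of the pools were checked against them.

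With Python 3.11.15 and pandas 2.3.3, pools were subtracted over genes in all 4 tables, with a limit of 2-fold. CPM was taken as 2 to the power of the deposited value. Low levels contain edgeR's prior count, set by the authors' processing, which pulls fold differences of scarce genes toward 0. Group limits and the effect of unequal treatment shares, chosen after the data were seen, took the pooled means as arithmetic means of CPM. Scripts were tested on simulated data. Transcript lengths were those of Ensembl canonical transcripts in GENCODE vM39 (GRCm39), and promoter windows those of RefSeq (GRCm38.p6).

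Members, lists, motifs and the rule for named genes were chosen with earlier results of these data known. The rule names the members, the most abundant gene and the highest and lowest AdipoRon minus DMSO difference of each list, and the 5 genes nearest to Sost. Axin2, Bmp2, Bmp4, Bmp7, Bmp8a, Bmp8b, Gdf6, Id1, the collagens and Lum were chosen after their values were seen. The same holds for genes named in the closing section beyond that rule, and some genes under the rule are given by range only. Alternatives were limits of 1.5-fold and 3-fold, a minimum log2 CPM of 0, a pseudocount of 1 CPM and centring on the median difference of all genes or of genes over log2 CPM 4.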

Additional observations from a re-analysis of the deposited data

How the results depend on the processing

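Centring on the median difference of all genes, or of genes over a log2 CPM of 4, moved no member by more than 1.5-fold, the limit used because no spread between cultures was known. On a scale of log2(CPM + 1), the AdipoRon minus DMSO difference was -1.62 for Sost, -1.55 for Grem1 and -0.69 for Wif1, so that Wif1 was no longer past 2-fold. With a limit of 1.5-fold, 5 members were lower with AdipoRon and 1 was higher in the Tau pool. A minimum mean log2 CPM of 0 left out Wif1. Past 2-fold lower with AdipoRon were then 2 of 8 members, against 1.45% of 15777 genes. Over all genes, 338 were lower and 132 higher with AdipoRon at 2-fold, 947 and 562 at 1.5-fold, 116 and 30 at 3-fold, and 169 and 65 on the log2(CPM + 1) scale. In the Tau pool, 100 genes were lower and 19 higher at 2-fold, 514 and 415 at 1.5-fold, 19 and 1 at 3-fold, and 50 and 3 on the log2(CPM + 1) scale, and 7 were higher among genes over a log2 CPM of 0. The smaller counts on the log2(CPM + 1) scale follow from its construction, which compresses differences of scarce genes. No paired analysis was possible because the deposited columns carry no value per culture, although the cultures of each group are numbered. For the same reason no replicate was left out, and no count model, size factors or filter on counts were run. The deposited means do not carry the depth of each culture, so that no counting error was given, also for Sost and Wif1, with levels under 1 CPM in the AdipoRon pool.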

Other observations

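Among BMP pathway genes, Bmp4 and Id3 were past 2-fold lower in the Tau pool. They were the 2 such genes among the 106 listed Wnt and BMP pathway genes, against 0.515% of all genes. Bmp4, a BMP ligand gene, had 3.64 CPM in the Tau pool and 12.7 CPM in the WT pool, a log2 difference of -1.80, and Id3, a transcriptional target of BMP signalling, had 21.1 and 47.2 CPM (-1.16). Id1 was at -0.61. Of the 11 genes in the list of BMP transducers and targets, 10 were below 0 in the Tau pool, with a median of -0.18. Below 0 were also 50.3% of all genes and 56.8% of genes over a log2 CPM of 4. Of 9 listed BMP ligand genes, 5 were above 0 and 4 below (median 0.09), with sums of 50.7 CPM in the Tau pool and 59.5 CPM in the WT pool. Among those above 0, Bmp8a, Bmp8b and Gdf6 were scarce, from 0.286 to 0.415 CPM in the genotype pools. Bmp7 was lower in the Tau pool, at 7.42 CPM against 11.9 CPM in the WT pool (-0.68). The 7 BMP receptor genes lay between -0.21 and 0.05. Microglia markers were below 0 for 6 of 6 genes, with sums of 61.9 CPM in the Tau pool and 124.7 CPM in the WT pool, and Sox10, a marker of the oligodendrocyte lineage, was at -1.64. The part of these cells in the Bmp4 and Id3 levels was not tested, and no difference between pools carries an error.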
